A study of Arabidopsis thaliana with 4 samples.

Results

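WRKY transcription factors form a plant family of DNA-binding proteins, and their genes were examined here for chromatin recovered with probes against the APOLO long noncoding RNA of Arabidopsis thaliana. Members were the nuclear protein-coding genes whose symbol is WRKY followed by a number, with WRKY42 (AT4G04450) left out. These were 66 of 27444 nuclear protein-coding genes. The family was selected on its symbols with the peak overlaps of all 4 lists already known, so the values given below are those that chose it. A gene was counted for a library when a peak of that library overlapped its body or the 1 kb on either side. The gene table lists 5 further family members under other symbols (ABO3, ZAP1, TTG2, TTR1 and RRS1), and these were not counted as members.

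The assay was ChIRP-seq, in which biotinylated oligonucleotides complementary to an RNA pull down crosslinked chromatin and the attached DNA is sequenced. All 4 libraries came from Col-0 plants that overexpressed full-length APOLO under the constitutive 35S promoter. The plants were raised on solid medium under long days, and the labels do not give their age or tissue. The ODD and EVEN libraries used separate sets of probes against APOLO, and the LACZ library used control probes. The ODD set was represented by ODD 1 and ODD 2, the EVEN set by EVEN 1 alone and the control by LACZ 1 alone, and no plants without the transgene were among them.

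WRKY proteins bind W box elements in promoters through a domain named for its conserved WRKY residues. They are best known for controlling immune responses, for which MAP kinases and VQ-motif proteins act as partners, and for roles in senescence, nutrient supply and root and seed development. APOLO is a noncoding RNA transcribed beside the PINOID kinase gene, and it is known to associate with distant genes and to act with a WRKY factor in root hair growth.

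The nuclear lists held 16126 peaks in ODD 1, 58146 in ODD 2, 20470 in EVEN 1 and 12546 in LACZ 1, with median widths of 103, 181, 92 and 269 bp. Read totals were not used here and depth is unknown. The lists differ in length, so a count of genes is read against the share of all protein-coding genes in the same library. Fold enrichment, the authors' ratio of the pileup at a peak's summit to the local background, ranks peaks within a list and does not compare libraries. The members were proposed with these peaks in view and EVEN and LACZ have no replicate, so all values describe these libraries and no test was run. A gene without a peak may still have signal below the calling threshold.

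WRKY genes had peaks of the APOLO probes about as often as, or somewhat more often than, other genes, and peaks of the control probes somewhat less often. ODD 1 peaks touched 37 of the 66 genes (56.1%), against 48.9% of all protein-coding genes. EVEN 1 peaks touched 43 (65.2%), against 55.3%. ODD 2 peaks touched 62 (93.9%), against 92.8%, so that the longest list hardly separates one gene from another. LACZ 1 peaks touched 24 (36.4%), against 41.3%.

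**Figure D1:**
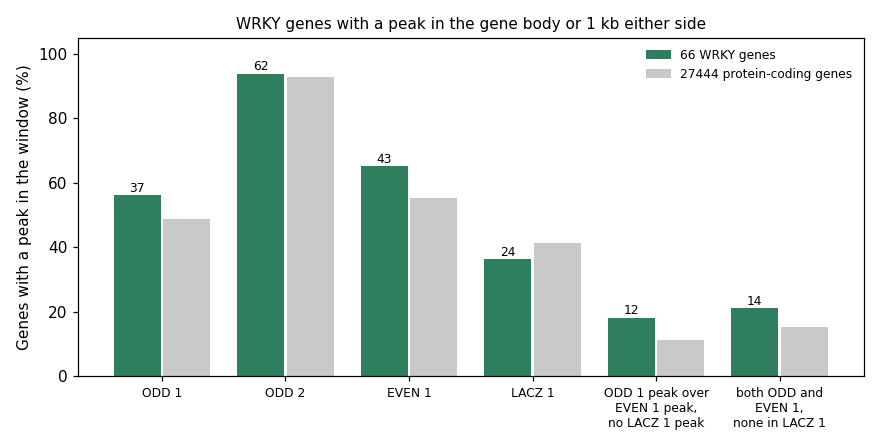
Bars give the percentage of the 66 WRKY genes (green, with the number of genes above) and of the 27444 nuclear protein-coding genes (grey) that had a peak in the gene body or 1 kb either side, for each library and for 2 combinations. EVEN 1 stood at 65.2% against 55.3%, ODD 2 at 93.9% against 92.8% and LACZ 1 at 36.4% against 41.3%.

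Gene length moved with these counts. Members with an EVEN 1 peak had a median length of 2246 bp, and the 23 without one had 1752 bp. For ODD 1 the medians were 2117 and 1913 bp. The median member was 1981 bp long, close to the 2078 bp of all protein-coding genes. Among the 32 members between 1639 and 2432 bp, the middle of the family's range, ODD 1 peaks touched 43.8%, against 48.5% of the 7144 genes of that length. In that range EVEN 1 touched 21 members (65.6%) and 4073 of the 7144 genes, and LACZ 1 28.1% against 40.5%. The higher ODD 1 share of the family was therefore not present among members of middle length, whereas the EVEN 1 and LACZ 1 differences kept their direction there.

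Four-library patterns divided the family further. Peaks in both ODD libraries and EVEN 1, with none in LACZ 1, were present at 14 members (21.2%), against 15.2% of all genes. They were WRKY3, WRKY6, WRKY9, WRKY13, WRKY14, WRKY24, WRKY36, WRKY38, WRKY39, WRKY47, WRKY48, WRKY57, WRKY68 and WRKY69. Another 13 members (19.7%, against 16.0%) had a peak in each of the 4 libraries. ODD 2 and EVEN 1 without the others held 11 (16.7%, against 12.4%), and both ODD libraries alone held 8 (12.1%, against 11%). ODD 2 alone held 7 (10.6%, against 14.3%). No peak of any library was present at 2 members (3.03%, against 4.62%).

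**Figure D2:**
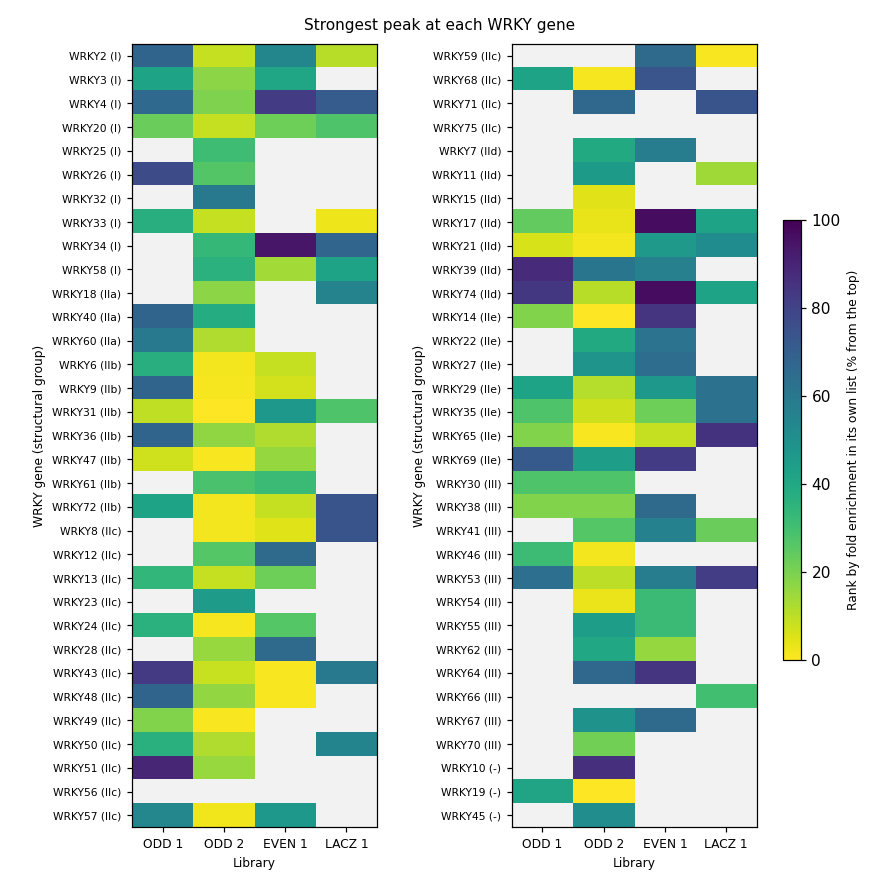
Each cell gives the strongest peak of 1 WRKY gene in 1 library, coloured by its rank by fold enrichment within that library's list (percent from the top, yellow highest). Light grey cells have no peak. Genes are ordered by structural group in brackets. WRKY14, WRKY19, WRKY31, WRKY47 and WRKY65 reach the top 1% of the ODD 2 list, and WRKY56 and WRKY75 are empty across all 4 libraries.

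The strictest combination asked whether the 2 probe sets recovered the same DNA. An ODD 1 peak overlapped an EVEN 1 peak, and no LACZ 1 peak, at 12 members (18.2%, against 11.1% of all genes). In the middle range of length the shares were 9.38% and 11.3%, and 3 of the 12 genes lay there. The 14 peaks at these 12 genes were all overlapped by an ODD 2 peak as well, against 95.4% of ODD 1 peaks at any protein-coding gene. Of the 14, 11 had their summit inside a WRKY gene body, against 62.8% of all pairs of an ODD 1 peak and a protein-coding gene. The summits of ODD 1 and EVEN 1 lay 14 to 173 bp apart, with a median of 49 bp. ODD 1 folds ran from 3.31 to 10.2, EVEN 1 folds from 2.75 to 8.93 and ODD 2 folds from 2.91 to 14.2. Of the 14, 7 had a −log10 q of at least 5 in ODD 1, against 49.6% of ODD 1 peaks at any protein-coding gene. In EVEN 1, 2 had it, against 15.3% of EVEN 1 peaks at any protein-coding gene, and 0 had it in both. These counts were near the background, and the share with both was not counted over all such peaks. The 0 is therefore not read as a trait of the family.

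Among the structural groups of WRKY proteins, which differ in the number and zinc finger of their domains, group IIb had the highest share of genes with ODD 1 peaks, and shared with group IIe the highest share with EVEN 1 peaks. WRKY42 belongs to this group and is left out of its counts. Of the 7 IIb members, 6 had an ODD 1 peak, 7 an ODD 2 peak, 7 an EVEN 1 peak and 2 a LACZ 1 peak. Over all protein-coding genes the shares are 48.9%, 92.8%, 55.3% and 41.3% in that order, and every group count below is to be read against them; 7 of 7 in ODD 2 is near the background, and the groups are small. The same genes held 18 of the 67 EVEN 1 peaks found at the family. Their median length was 2805 bp, the longest of the groups.

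WRKY47 held one of the strongest ODD 1 peaks of the family. On TAIR10 it spanned chr4:747740-747994 with a fold of 9.87, within the top 7.20% of the ODD 1 list. The overlapping EVEN 1 peak at chr4:747710-747942 had a fold of 4.20, and the ODD 2 peak at chr4:747573-748125 had a fold of 12.5, in the top 0.911% of its list. All 3 libraries thus placed a peak on one stretch inside the gene, and LACZ 1 had none in the window.

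WRKY31, a close relative of WRKY6 and WRKY42, held the highest ODD 2 fold of the family. Its ODD 2 peak spanned chr4:11691357-11692020 with a fold of 14.97. The ODD 1 peak at chr4:11691692-11691962 had a fold of 8.98, and an EVEN 1 peak at chr4:11691377-11691620 had a fold of 3.41. Both lay inside the ODD 2 peak but did not touch each other. A LACZ 1 peak with a fold of 3.32 lay farther along the gene, at chr4:11692337-11692539, over another EVEN 1 peak.

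WRKY6, a regulator of senescence, defence and phosphate transport, had an ODD 1 peak at chr1:23017038-23017156 with a fold of 5.58. EVEN 1 had 2 peaks close together there, at chr1:23016992-23017155 with a fold of 3.68 and at chr1:23017229-23017434 with a fold of 4.73. The ODD 2 peak at chr1:23016948-23017470, with a fold of 11.6, spanned all of them. LACZ 1 had no peak at WRKY6.

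WRKY72, a factor of basal defence, showed the control peak apart from the shared one. Its ODD 1 peak at chr5:4906215-4906288 had a fold of 5.20 and overlapped an EVEN 1 peak with a fold of 3.68 and an ODD 2 peak with a fold of 11.7. The LACZ 1 peak, at chr5:4905088-4905373 with a fold of 2.63, coincided with other peaks of EVEN 1 (fold 4.20) and ODD 2 (fold 4.11). WRKY72 therefore held one stretch found with APOLO probes alone and one found with the control probes too.

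At the remaining IIb genes ODD 2 peaks overlapped EVEN 1 peaks, but ODD 1 peaks did not. None of these genes had a LACZ 1 peak. WRKY36, a repressor of the light-response gene HY5, had EVEN 1 folds of 4.46 and 4.20 inside the gene, and its ODD 1 peak (fold 4.26) had its summit in the neighbour AT1G69800. WRKY9 had 3 EVEN 1 peaks with folds of 3.94 to 5.04, and an ODD 1 peak (fold 4.26) with its summit in AT1G68160. WRKY61 had 3 EVEN 1 peaks, with folds of 3.41 to 3.68, and 4 ODD 2 peaks, but none in ODD 1.

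**Figure D3:**
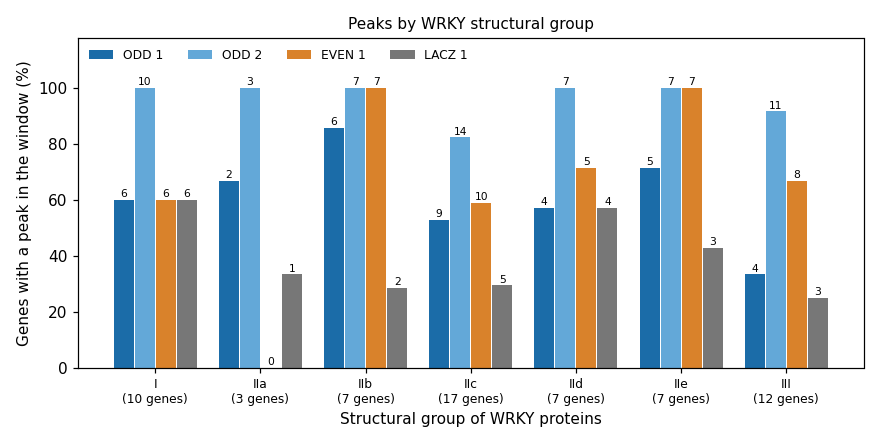
Bars give the percentage of genes with a peak in each library for the 7 structural groups, with the number of genes above each bar. Group IIb reached 7 of 7 in EVEN 1 and ODD 2 with 2 of 7 in LACZ 1, and group IIa had 0 of 3 in EVEN 1.

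Group IIe, which includes the immune factors WRKY22 and WRKY29 that act below MAP kinases, also had EVEN 1 and ODD 2 peaks at all 7 of its genes, with ODD 1 at 5 and LACZ 1 at 3. Its median length was 1758 bp, below the 1981 bp of the family. WRKY14 held the strongest shared stretch of the group: the ODD 1 peak at chr1:10870570-10870696 had a fold of 7.09 and the ODD 2 peak over it a fold of 14.2, in the top 0.220% of its list. The EVEN 1 peak there was weak, with a fold of 2.89, and met the ODD 1 peak over 4 bp. At WRKY69 the EVEN 1 fold was 2.75, and both ODD 1 peaks (folds 4.24 and 4.21) had their summits in the adjacent gene AT3G58720.

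WRKY35 was the one member where an ODD 1 peak overlapped both an EVEN 1 and a LACZ 1 peak. The ODD 1 peak at chr2:14693982-14694193 had a fold of 6.15, and the EVEN 1, ODD 2 and LACZ 1 peaks over it had folds of 3.68, 8.61 and 2.76. All 4 libraries, the control included, thus held this stretch. WRKY22 had EVEN 1 peaks with folds of 3.23 and 3.12 and ODD 2 peaks with folds of 2.69 to 3.95, and none in ODD 1 or LACZ 1. Both EVEN 1 peaks of WRKY22 overlapped an ODD 2 peak, with ODD 2 folds of 3.71 and 2.69. WRKY29 had an ODD 1 peak with a fold of 5.20 and an EVEN 1 peak with a fold of 3.41 at separate places in the gene. An ODD 2 peak lay over each, with a fold of 7.68 over the ODD 1 peak and 4.24 over the EVEN 1 peak.

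Group IId proteins bind calmodulin and include the defence repressors WRKY11 and WRKY17. Of 7 genes, 4 had an ODD 1 peak, 7 an ODD 2 peak, 5 an EVEN 1 peak and 4 a LACZ 1 peak. WRKY21 held the highest ODD 1 fold of the family, 10.2, at chr2:13035255-13035452, with a −log10 q of 18.02. An EVEN 1 peak with a fold of 3.43 lay inside it, and the ODD 2 peak over it had a fold of 11.4. The LACZ 1 peak of WRKY21 lay elsewhere in the gene, with a fold of 2.90.

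Group IIc, the largest with 17 members, spanned the extremes. ODD 1 peaks touched 9, ODD 2 peaks 14, EVEN 1 peaks 10 and LACZ 1 peaks 5. WRKY48, a negative regulator of basal defence, held the highest EVEN 1 fold of the family, 8.93, at chr5:20090963-20091120, in the top 1.07% of that list. The ODD 1 peak that met it over 16 bp was weak, with a fold of 4.26, and the ODD 2 fold was 5.56. On a second stretch of WRKY48 the fold reached 3.78 in ODD 1, 6.61 in ODD 2 and 3.15 in EVEN 1. The order of strength between the probe sets was thus unlike that at WRKY21 or WRKY47, where ODD 1 ranked higher in its list than EVEN 1 did in its own.

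WRKY43 had the second highest EVEN 1 fold, 8.72, at chr2:18956065-18956306, with an ODD 1 fold of 3.82 and an ODD 2 fold of 8.38. The summits of all 3 peaks lay in the neighbouring gene KPHMT1, and the EVEN 1 peak ended 906 bp from the WRKY43 gene body. A LACZ 1 peak with a fold of 2.81 lay between it and WRKY43. WRKY8, a factor of salt and virus responses, had the third highest EVEN 1 fold, 5.52, and an ODD 2 peak with a fold of 11.4 elsewhere in the gene. At WRKY68, the shared stretch had a fold of 3.31 in ODD 1, 2.91 in ODD 2 and 3.10 in EVEN 1, near the bottom of the ODD 1 list at 95.9% from the top. A stronger ODD 2 peak of WRKY68, with a fold of 12.1, lay over an ODD 1 peak with a fold of 5.20 and an EVEN 1 peak with a fold of 3.07. The ODD 1 and EVEN 1 peaks there did not touch each other.

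Both members with no peak in any library belong to group IIc. WRKY75, a gene that acts in phosphate starvation, root development and senescence, was one of them, and WRKY56 was the other. WRKY59 had no ODD peak, but held the highest LACZ 1 fold of the family, 8.29, at chr2:9333998-9334361, in the top 0.933% of the control list, and a separate EVEN 1 peak with a fold of 3.15. WRKY23, an auxin-responsive gene of root development, had 4 ODD 2 peaks with folds of 2.52 to 3.65 and none in the other libraries. WRKY75 and WRKY23 thus had no peak in ODD 1, EVEN 1 or LACZ 1.

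Group I proteins carry a pair of WRKY domains, and WRKY33, the activator of camalexin synthesis and of resistance to necrotrophic fungi, is the best known. Of 10 genes, 6 had an ODD 1 peak, 10 an ODD 2 peak, 6 an EVEN 1 peak and 6 a LACZ 1 peak, the highest share of control peaks among the groups. WRKY33 had an ODD 1 peak at chr2:16110292-16110503 with a fold of 5.54 and an ODD 2 peak over it with a fold of 8.28. EVEN 1 had none. Its LACZ 1 peak, at chr2:16107219-16107509 with a fold of 6.30, was the second highest of the control at the family and lay outside the gene body. The ODD and LACZ peaks of WRKY33 thus lay on separate DNA.

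WRKY3, a defence factor against necrotrophic pathogens, held the most peaks of any member, 11 in all. ODD 1 had 4, with folds of 3.56 to 5.20, ODD 2 had 6, with folds of 3.49 to 6.37, and EVEN 1 had 1. The EVEN 1 peak, with a fold of 3.56, overlapped the ODD 1 peak at chr2:1016410-1016550, which had a fold of 4.83. WRKY20 had its shared stretch at chr4:13439962-13440111, where the fold was 6.62 in ODD 1, 5.32 in ODD 2 and 3.94 in EVEN 1, and a LACZ 1 peak (fold 3.32) elsewhere. WRKY2, which acts in the zygote and pollen, had an ODD 1 peak with a fold of 4.26 inside the gene, under an ODD 2 peak with a fold of 8.37. Its EVEN 1 peak, with a fold of 3.37, lay elsewhere in the gene and met an ODD 2 peak with a fold of 2.64. The LACZ 1 peak counted for WRKY2, with a fold of 4.16, had its summit in the neighbour CSN6A. WRKY34, a pollen gene, had no ODD 1 peak and 2 LACZ 1 peaks, with folds of 2.54 and 2.74. Its 3 ODD 2 peaks, with folds of 2.47 to 4.35, each overlapped a LACZ 1 peak. Its EVEN 1 peak, with a fold of 2.74, met an ODD 2 peak but no LACZ 1 peak.

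**Figure D4:**
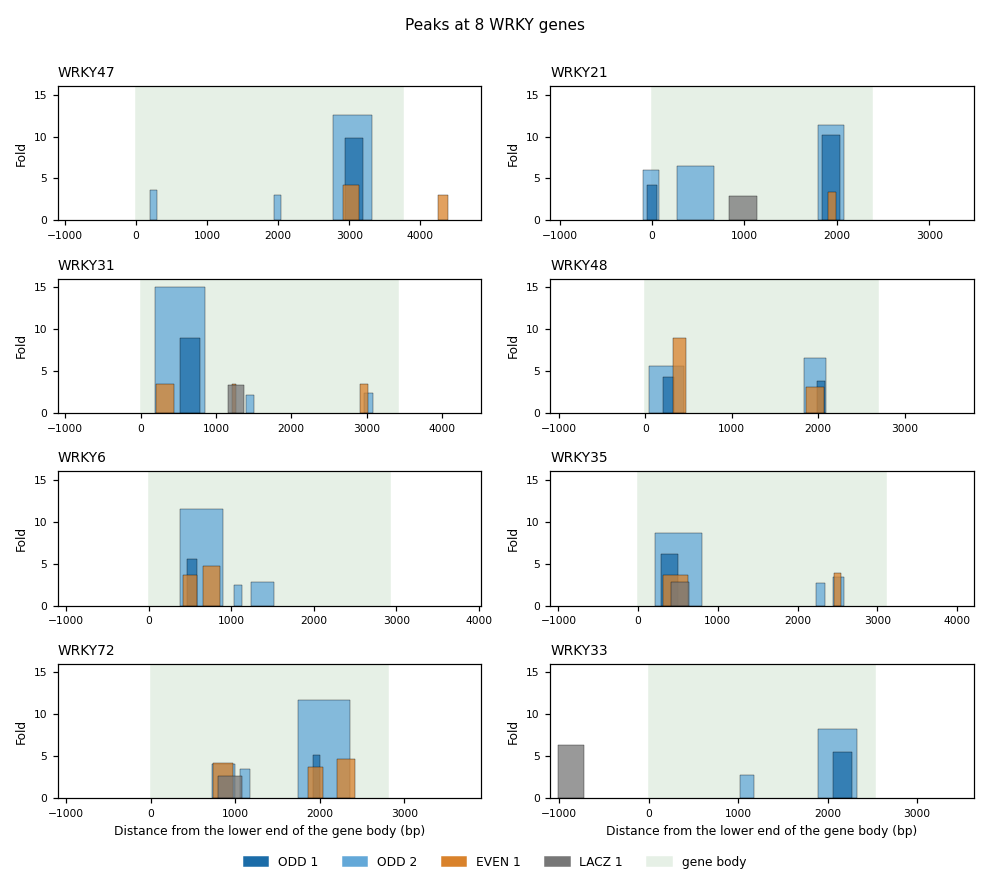
Peaks at 8 WRKY genes are drawn to scale, with the distance from the lower end of the gene body on the x axis (bp, strand not shown), the gene body shaded, and the fold enrichment of each peak as its height. Heights are comparable within a library. The 3 APOLO-probe libraries coincide at WRKY47, WRKY6, WRKY72, WRKY21, WRKY48 and WRKY35, LACZ 1 joins them at WRKY35, and the LACZ 1 peak at WRKY33 stands outside the gene.

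Group IIa holds WRKY18, WRKY40 and WRKY60, related factors of abscisic acid signalling and of defence that can pair with each other. No EVEN 1 peak lay at any of the 3. WRKY40 had an ODD 1 peak with a fold of 4.26 and 4 ODD 2 peaks with folds of 2.91 to 3.97. For WRKY60 the ODD 1 peak (fold 4.61) had its summit in AT2G25010. WRKY18 had 1 ODD 2 peak with a fold of 6.36 and 1 LACZ 1 peak with a fold of 2.89, both beyond the gene body. The trio therefore had no stretch found with both probe sets.

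Group III includes regulators of salicylic acid responses and senescence. Of 12 genes, 4 had an ODD 1 peak, the lowest share among the groups, 11 had an ODD 2 peak, 8 an EVEN 1 peak and 3 a LACZ 1 peak. WRKY38, a defence repressor, was the group's single gene where an ODD 1 peak overlapped an EVEN 1 peak. On that stretch, chr5:7496608-7496684, the fold was 7.09 in ODD 1, 6.09 in ODD 2 and 3.15 in EVEN 1. ODD 2 peaks also overlapped EVEN 1 peaks at WRKY54, WRKY55, WRKY62, WRKY64 and WRKY67, which had no ODD 1 or LACZ 1 peak. WRKY53, a senescence regulator, had an ODD 1 fold of 4.45 and an ODD 2 fold of 7.97 inside the gene, while its EVEN 1 and LACZ 1 peaks (folds 3.30 and 2.56) both had their summits in the neighbour 3xHMG-box2. WRKY70, which links salicylic acid and jasmonate responses, had 3 ODD 2 peaks with folds of 3.58 to 5.70 and no other peak. WRKY66 was the one member with peaks in LACZ 1 alone, with folds of 3.29 and 2.65.

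WRKY19, WRKY10 and WRKY45 were not assigned to a group here, so the group counts leave them out. WRKY19 joins a WRKY domain to a TIR-NBS-LRR immune receptor and is the longest member at 8171 bp. It had 8 ODD 2 peaks and 2 ODD 1 peaks and none in EVEN 1 or LACZ 1. Its strongest ODD 2 peak, at chr4:7209297-7209553, had a fold of 13.7, in the top 0.341% of the list, over an ODD 1 peak with a fold of 4.89. WRKY10 and WRKY45 had ODD 2 peaks alone, with folds of at most 3.38.

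Taking peaks instead of genes, the family held 45 peaks in ODD 1, 159 in ODD 2, 67 in EVEN 1 and 29 in LACZ 1. The median fold of the ODD 1 peaks was 4.95, against 4.93 over the whole list. In EVEN 1 it was 3.41 in both cases, and in LACZ 1 it was 2.89 against 2.93. ODD 2 peaks at the family had a median fold of 3.84, against 3.44. Of the 159, 24 were in the top 10% of the list, against 10.4% of ODD 2 peaks at any protein-coding gene. The same counts were 3 of 45 in ODD 1 (against 9%), 7 of 67 in EVEN 1 (against 8.33%) and 2 of 29 in LACZ 1 (against 9.4%). Peaks at WRKY genes were therefore of ordinary strength in ODD 1, EVEN 1 and LACZ 1.

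ODD 1 peaks were found again in ODD 2 at nearly every place. An ODD 2 peak covered or touched 44 of the 45 peaks of ODD 1 (97.8%, against 95.4% of ODD 1 peaks at any protein-coding gene). The exception was the ODD 1 peak near WRKY39, with a fold of 3.73. The 44 ODD 2 peaks with an ODD 1 peak had a median fold of 7.90, and the 115 without one had 3.38. The ODD 2 list is the longest, and its median fold over the whole list was 3.44. The ODD 2 peaks without an ODD 1 peak thus had folds near the middle of their list, and some were high, such as 11.4 at WRKY8 and 10.6 at WRKY54.

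Across probe sets, 15 of the 45 ODD 1 peaks overlapped EVEN 1 (33.3%, against 22.8% at any protein-coding gene), and 1 overlapped LACZ 1 (2.22%, against 11.5%). EVEN 1 peaks overlapped ODD 2 in 52 of 67 cases (77.6%, against 59.9%), ODD 1 in 14 (20.9%, against 17.9%) and LACZ 1 in 6 (8.96%, against 16.97%). Of the 29 LACZ 1 peaks, 10 overlapped ODD 2 (34.5%, against 55.5%), 6 overlapped EVEN 1 (20.7%, against 26.1%) and 1 overlapped ODD 1 (3.45%, against 14.4%). No peak of any APOLO-probe library met 16 of the 29 (55.2%, against 38.6% of LACZ 1 peaks at any protein-coding gene). Peaks of the control were present at 23 genes that also had APOLO-probe peaks, and at 11 of these the peaks touched (47.8%, against 66.1% of the 11087 protein-coding genes with both kinds of peak). The rest had the 2 kinds of peak at separate places within one window. The control library differed from the others in peak width, and the part of width in these shares was not tested.

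**Figure D5:**
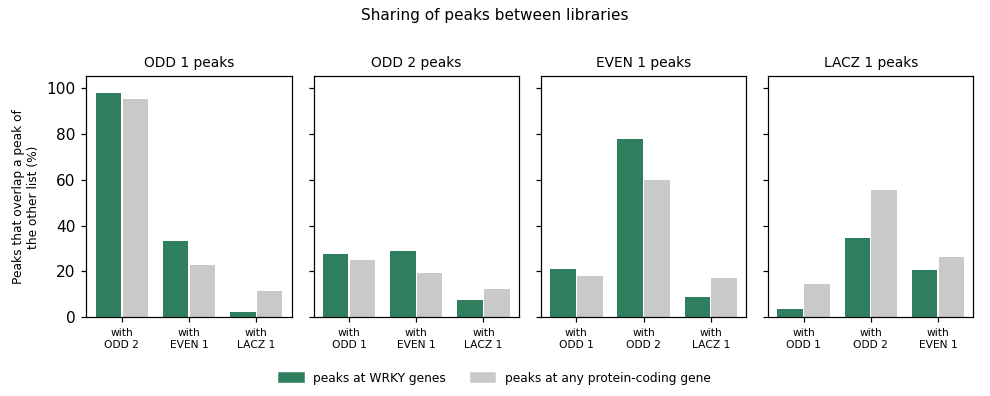
For each library, bars give the percentage of its peaks that overlapped by at least 1 bp a peak of another library, for peaks at WRKY genes (green) and at any protein-coding gene (grey). Sharing of ODD 1 with LACZ 1 was 2.22% at WRKY genes and 11.5% at any protein-coding gene, and sharing of EVEN 1 with ODD 2 was 77.6% and 59.9%.

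Position within the window differed between libraries. EVEN 1 summits lay inside the WRKY gene body in 83.6% of cases, against 69.2% of all pairs of an EVEN 1 peak and a protein-coding gene. For ODD 2 the shares were 74.8% and 62.8%, for ODD 1 62.2% and 62.8%, and for LACZ 1 55.2% and 65.4%. Of the 37 members called in ODD 1, 10 had all their summits in another gene, among them WRKY9, WRKY24, WRKY26, WRKY36, WRKY46, WRKY50 and WRKY51. The corresponding numbers were 6 of 62 for ODD 2, 6 of 43 for EVEN 1 and 5 of 24 for LACZ 1. This count was not made over all protein-coding genes, so it is not read as a trait of the family. At WRKY24 and WRKY46 the neighbours held strong ODD 2 peaks, with folds of 12.1 in AT5G41580 and 11.5 in SDH8. No peak counted for more than 1 member. At the limit of 1 kb, an ODD 2 peak 972 bp from WRKY15 (fold 9.74) and an ODD 1 peak 965 bp from WRKY60 (fold 4.61) were just inside. An ODD 1 peak 1050 bp from WRKY15 (fold 5.67) and an ODD 2 peak 1017 bp from WRKY55 (fold 2.93) were just outside.

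Genes that act with WRKY factors in immunity were counted in the same way, from a list of 21. It covered the flagellin receptor and MAP kinase cascade, VQ-motif partners, and genes of salicylic acid and camalexin. ODD 1 peaks touched 12 (57.1%, against 48.9% of all genes), ODD 2 peaks 21 (100%, against 92.8%), EVEN 1 peaks 19 (90.5%, against 55.3%) and LACZ 1 peaks 11 (52.4%, against 41.3%). An ODD 1 peak that overlapped EVEN 1 and no LACZ 1 peak was present at 2 of the 21, MPK3 and MKS1 (9.52%, against 11.1%), a share near the background. MPK3, a MAP kinase activated by pathogen signals, had strongest folds of 4.83 in ODD 1, 6.04 in ODD 2 and 5.32 in EVEN 1. MKS1, a VQ protein that binds WRKY33, had 6.01, 9.17 and 3.48 in the same order. PAD3, the last enzyme of camalexin synthesis and a target of WRKY33, had peaks in ODD 2 and LACZ 1 alone, with strongest folds of 2.52 and 3.04.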

How the data were processed

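Peak lists of 4 APOLO ChIRP-seq libraries were used, each made from 1 library. The submitters' processing notes name CASAVA 1.8.2, Trimmomatic, Bowtie2 and MACS2 and the TAIR10 assembly. How MACS2 was set, and whether it had a control library, is not given in the sources used here. According to the labels and per the file headers, the authors deposited for each peak a pileup signal, a fold enrichment (a ratio to the local background) and the −log10 of the p-value and q-value. The highest q-value was 0.0496. Depth is unknown, so folds are read within 1 list.

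Peaks on the 5 nuclear chromosomes were set against gene bodies of a RefSeq table of TAIR10.1, whose coordinates are not printed. As a check of its fit, summits were shifted by up to 3000 bp, and in 10 of 10 chromosome parts they were rarest within 200 bp of a gene edge at 0 bp. Strand and sequence were not used here, so the planned W box searches and the grouping by protein motif were not run. WRKY groups were assigned by symbol, groups I and III after the files were seen, and WRKY10, WRKY19 and WRKY45 were left unassigned. Sharing required an overlap of at least 1 bp, tested on simulated intervals (Python 3.11.15, pandas 2.3.3). The members and lists were chosen with earlier results of these data known. Named genes were those with an ODD 1 peak over an EVEN 1 peak, the 3 highest folds per library, those with control peaks alone or no peak, a list of known genes and WRKY19, and others were named to complete a count or after their values were seen. Alternatives changed the window, q threshold, list length, overlap, use of summits, ODD library and, chosen after seeing the data, the naming of members.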

Additional observations from a re-analysis of the deposited data

How the results depend on the processing

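Of 40 recomputed counts, 28 stayed within 1.5 times the reported count and 12 did not. Some of the 28 could not have moved that far, as given below. Shares of all genes moved with the counts and are given beside them. With −log10 q of at least 5, the genes touched numbered 22 in ODD 1 (33.3%, against 28.8% of all genes), 9 in EVEN 1 (13.6%, against 12%) and 6 in LACZ 1 (9.09%, against 16.7%). Those with an ODD 1 peak over an EVEN 1 peak and no LACZ 1 peak numbered 0 (against 2.98%), and those with peaks in both ODD libraries and EVEN 1 and none in LACZ 1 numbered 3 (4.55%, against 4.15%). With each list cut to 12546 peaks, the counts were 35 in ODD 2 (53%, against 44.7%), 28 in EVEN 1 (42.4%, against 38.8%), 7 for the overlap (10.6%, against 7.42%) and 9 for the 3-library pattern (13.6%, against 7.92%). The 7 were WRKY3, WRKY6, WRKY20, WRKY21, WRKY47, WRKY48 and WRKY72. With gene bodies alone, ODD 1 touched 24 genes (36.4%, against 34.4% of all genes). The overlap does not use ODD 2, so leaving out ODD 2 could not change its 12 genes. The 3-library pattern then held 14 (21.2%, against 15.3%). Without ODD 1, 34 genes (51.5%) stood against 31.9% of all genes for the overlap. For the 3-library pattern, 25 (37.9%) stood against 27.6%. Counting the 5 members listed under other symbols, an alternative chosen after seeing the data, could not move a count past 1.5 times. Those members add at most 5 genes to any count. LACZ 1 stayed below the share of all genes in these settings, though the cut left its list, the shortest, unchanged. The shares were closest, 39.4% against 41.3%, with the 5 further members counted. They were farthest apart, 45.5% against 53.2%, with 2 kb either side of the gene body. No paired analysis was possible because the groups share 1 replicate number and no test was run. Without read totals, what depth limits could not be measured.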
